A study of Homo sapiens with 15 samples.

Results

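NGP, an established human neuroblastoma cell line, was set against 4 other neuroblastoma lines at once, and the genes described here are those in which it stood apart from every one of them. A gene was a member when the NGP line mean was at least 1 log2 unit above, or at least 1 log2 unit below, the line mean of each of the other 4. The values were log2(intensity + 1), after the median of the tested genes had been made equal on all arrays. Of 12721 genes tested, 408 met the rule, 236 of them higher in NGP and 172 lower. Genes on the long arm of chromosome 12, called 12q, were kept apart because segments of this arm are known to be amplified in NGP. It held 52 of the higher members and 1 of the lower, and the other 184 higher and 171 lower members lay elsewhere.

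The study profiled total RNA of 5 lines on 15 Affymetrix 3' expression arrays, 3 for each line. The lines were NGP, SK-N-AS, SH-SY5Y, BE(2)-C and KELLY, all given as neuroblastoma cell lines, and all were grown alike in DMEM with 10% fetal bovine serum, and no treatment is named in the labels. Cells were counted before RNA isolation, and ERCC external control transcripts were added at lysis. Each line stands for 1 tumour's cells, so what sets NGP apart can be a trait of this line alone, and SH-SY5Y and BE(2)-C are known as subclones of other lines. The 3 arrays of a line are numbered, but whether they are separate cultures is not given in the labels. The p-values therefore measure only the spread between these arrays, which may be technical.

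Neuroblastoma is a childhood tumour of the sympathetic nervous system, and most of its lines keep the transcription factors and the catecholamine and neurosecretory genes of that lineage. Amplification of MYCN is common in it. A smaller group of tumours and lines, NGP among them by general knowledge, also carries extra copies of 12q segments with CDK4, a cyclin-dependent kinase that drives entry into S phase, and MDM2, the ubiquitin ligase that marks p53 for degradation.

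The line label was checked against markers of the lineage. Correlations over the tested genes were 0.993 or higher between arrays of a line and 0.892 or lower between lines. The summed centred intensity of 11 neuroblastoma lineage markers was 36785 to 37572 on the NGP arrays, against 9086 to 9397 in SK-N-AS and 44596 to 61373 over the arrays of SH-SY5Y, BE(2)-C and KELLY. All 11 lay above the detection filter in NGP, and 0 of them were members. The 2 with the largest difference from the mean of the other lines were ELAVL4, a neuronal RNA-binding protein, with 3288 ± 79.9 in NGP, and GAP43, a growth-cone protein, with 2464 ± 14.7. SK-N-AS was the low line for both, at 23.9 ± 6.28 and 35.2 ± 7.87, and SH-SY5Y, BE(2)-C and KELLY averaged 1705 or more and 1400.4 or more. All 9 leukocyte markers on the array were below the filter in NGP. Lists of epithelial, endothelial, fibroblast and mesenchymal, and Schwann cell and melanocyte markers held 0 members, which does not mean that they were silent. Below the filter in NGP were 6 of 8, 7 of 8, 4 of 10 and 5 of 8 of those on the array, in that order. The fibroblast and mesenchymal sum was 3638 to 4436 in NGP, above SH-SY5Y (2863 to 3266) and KELLY (1357 to 1425). It was below BE(2)-C (5814 to 5978) and SK-N-AS (26213 to 26843). MYCN averaged 10806 ± 691 in NGP, against 9743 ± 645 in BE(2)-C, while KELLY had 12544 ± 367, so that NGP shared its high level with these lines and the gene was no member. Levels throughout are centred intensities, with each array brought to a common median, and ± gives the SD of 3 arrays. Relative to the ERCC probe sets the median tested gene stood at -0.98 in NGP and between -1.37 and -0.09 in the other lines on the log2 scale, so that NGP was inside the range of the others. In bulk RNA, fewer cells with a transcript and less of it per cell cannot be told apart.

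The higher members made up 1.86% of the tested genes and the lower members 1.35%. On 12q they were 9.92% (52 of 524) and 0.191% (1 of 524), and outside it 1.51% (184 of 12197) and 1.4% (171 of 12197). Taken 1 line at a time, more genes differed: limma called 15.8% of tested genes higher and 14.3% lower in NGP than in SK-N-AS, 7.79% and 8.38% against SH-SY5Y, 10.3% and 8.96% against BE(2)-C, and 6.89% and 7.18% against KELLY. In that model across all tested genes every member also passed a Benjamini-Hochberg adjusted p of 0.05 in all 4 contrasts, the weakest at 9.19e-05. That test rests on the same contrasts as the rule and adds no support. Nor does a lack of overlap between the NGP arrays and the others, which the rule all but fixes. It held for every member compared array by array: all 52 higher and the 1 lower on 12q, and 175 higher and 171 lower elsewhere. Overlap was not counted over the other tested genes, so these counts have no background and set no single member apart. The line at 1 cut through a continuous range, with 50 higher members between 1 and 1.2 and 81 genes between 0.8 and 1 just outside. For the lower side these numbers were 42 and 76. DICER1 at 1.003 and GOLGA8A at 1.004 were just inside, and ADGRL3 at 0.997 and CORO2B at 0.995 just outside. On the lower side MYO1C at -1.009 and NR2F6 at -1.01 were inside, and TOR3A at -0.998 and BCAR3 at -0.997 outside.

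Most genes chosen by the rule met it again in values kept out of the threshold step. The filter and each gene's probe set were still set on all 15 arrays. When the rule was applied to the arrays of 2 replicate numbers only, the arrays of the number left out put 357 of 414, 363 of 428 and 374 of 409 chosen genes again at least 1 beyond every other line. Those shares are 86.2%, 84.8% and 91.4%. They show only how well the arrays of a line repeat each other, and these arrays may be technical replicates. In the arrays of a single number, 1, 2 or 3, the rule picked 1.89%, 1.75% and 2.04% of all tested genes as higher and 1.35%, 1.49% and 1.4% as lower. Further probe sets of the same gene were also kept out of the threshold step, though they were read from the same RNA. Only probe sets whose own highest line mean reached the filter were counted. For higher members that were dim in every other line, this keeps mainly probe sets that were bright in NGP. It can raise their share, so the shares of higher and lower members do not compare like with like. Of 469 further probe sets of 229 member genes, 308 (65.7%) lay at least 1 beyond every other line in the member's direction. Over all 16736 further probe sets, these 469 among them, 1.64% were higher and 1.02% lower. Of the 16267 that belonged to genes outside the members, 75 were higher and 61 lower. For the members the share was 86.1% (68 of 79) for higher members on 12q, 69.7% (131 of 188) for higher members elsewhere and 53.5% (106 of 198) for lower members elsewhere. Of the 469, 6 differed from the mean of the other lines in the opposite direction, and they belonged to MATCAP2, RHBDF2, TAPBP and UCHL5.

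On 12q most higher members lay in 3 separate stretches. In the order of genes along the arm, 42 of the 52 fell in runs of at least 3 members with no more than 3 tested genes between them. The first ran through AGAP2-AS1, TSPAN31 and CDK4 up to SLC16A7 and held 10 members among 12 tested genes. The second ran from RAP1B across MDM2 to CNOT2 with 8 of 11, and the third from CAMKK2 to KMT5A, in band 12q24.31, with 24 of 33. The median difference of NGP from the mean of the other lines was 2.65, 2.27 and 2.21 over all tested genes of these stretches. Over the 468 tested 12q genes outside them it was 0.11. Each stretch was cut to begin and end on members, so high medians inside and a low one outside follow from the cut. They describe the stretches only. For 12q as a whole the median difference was 0.15, with an SD of 0.03 over the NGP arrays, against 0.03 for all other tested genes. On the scale of the deposited intensities it was -0.0041 against -0.1209. The short arm had 0 higher members among 163 tested genes. The plot along the arm shows the 3 stretches against a remainder with a median of 0.11. Many genes just before the first stretch were raised without meeting the rule, such as R3HDM2 at 1.15 and DDIT3 at 1.48. Others there were not, such as STAT6 at -0.695 and GLI1 at -0.10.

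**Figure D1:**
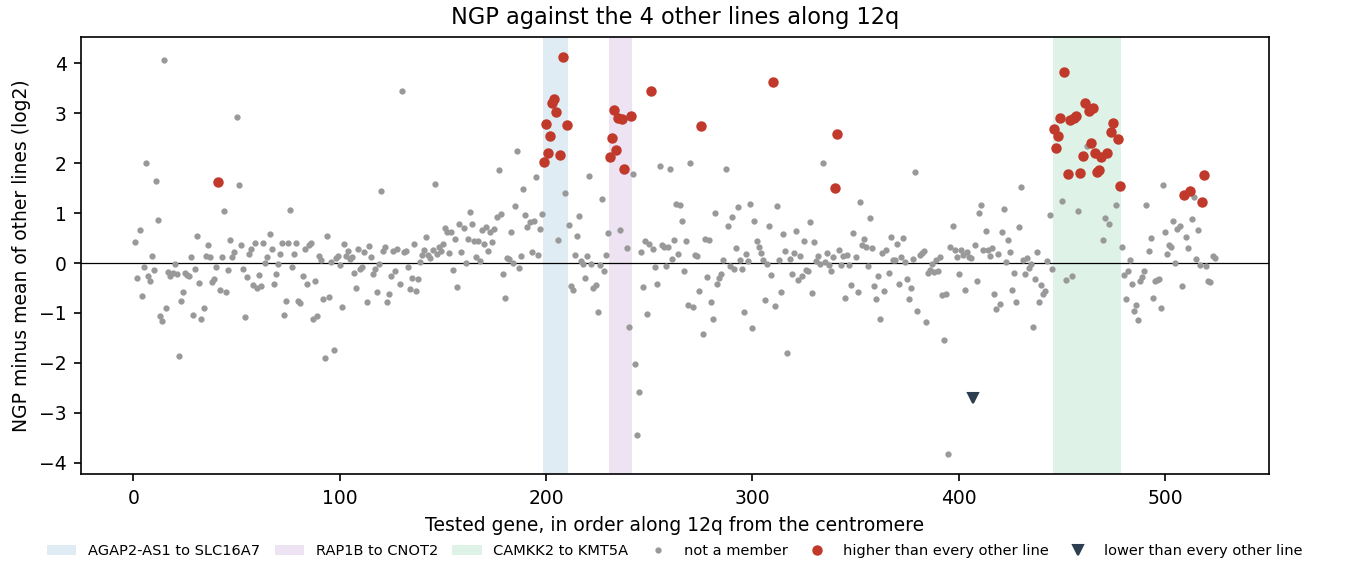
Each point is 1 of the 524 tested genes on 12q, in order from the centromere along the x axis, with the log2 difference of the NGP line mean from the mean of the other 4 line means on the y axis. Red points are the 52 higher members and the dark triangle is TBX3, the 1 lower member; shaded bands mark the 3 stretches, which hold 42 of the 52, with AGAP2-AS1 to SLC16A7 and RAP1B to CNOT2 in the first pair and CAMKK2 to KMT5A far to the right.

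In the first stretch CDK4 had centred intensities of 14788, 14714 and 13613 on the 3 NGP arrays, and 2370.0 to 3837 (median 3335) on the 12 others. NGP differed least from SK-N-AS, by 1.98 on the log2 scale (SE 0.06). All 3 of its further probe sets showed NGP at least 1.8986 above every other line. TSFM, a mitochondrial translation elongation factor beside it, had 9490.5, 8477 and 8864 in NGP and 817 to 1321 (median 1100.5) on the other arrays. Against KELLY, its nearest line, the log2 difference was 2.86 (SE 0.08). METTL1, which methylates tRNA, had 2816, 3059 and 2835 in NGP and 258 to 385 (median 333) elsewhere. BE(2)-C was nearest, at a log2 difference of 2.96 (SE 0.08). In each of these genes the NGP arrays stood clear of all other arrays, as in every member compared, while the other lines lay close together. ATP23, a mitochondrial metalloprotease and the member with the largest smallest difference on the arm, had 5797, 5001 and 5429.7 in NGP and 234 to 431 (median 308) elsewhere. The log2 difference was smallest from SK-N-AS, at 3.81 (SE 0.07). EEF1AKMT3, a lysine methyltransferase, averaged 1454 ± 54.6 in NGP and 226 ± 4.57 in SK-N-AS, its next line. CYP27B1, which makes the active form of vitamin D, averaged 399 ± 18.2 in NGP and 75.2 ± 0.64 in SH-SY5Y. SLC16A7, a monocarboxylate transporter at the stretch's far end, was uneven, with 626, 327 and 588 in NGP, and its lowest NGP array was still above the 148 of the highest other array. Of 19 tested genes listed for the CDK4 neighbourhood, 7 were higher members and 0 lower, with a median difference from the mean of the other lines of 0.98 against 0.04 over all tested genes. The list reaches past the stretch, and its other 12 tested genes did not meet the rule. Of all tested 12q genes, 9.92% were higher members and 0.191% lower. The list was drawn with earlier results known, so its count is a description only.

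MDM2 was measured at 884, 841 and 989.9 in NGP and 144 to 234 (median 195) on the other 12 arrays. The smallest log2 difference, from SH-SY5Y, was 2.04 (SE 0.07). The groups did not overlap, which the rule all but fixes for every member. SLC35E3, a solute carrier family gene next to MDM2, had 4185, 4220.5 and 4272 in NGP and 438 to 624 (median 500.2) elsewhere. NGP differed least from KELLY, by 2.99 on the log2 scale (SE 0.09). CNOT2, a subunit of the CCR4-NOT deadenylase that shortens mRNA tails, had 12102, 11457 and 11279 in NGP and 1228 to 1759.8 (median 1532) elsewhere. Against SH-SY5Y, its nearest line, the log2 difference was 2.79 (SE 0.07). YEATS4, a chromatin reader of acetylated histones, NUP107, a nuclear pore scaffold protein, and CPM, a membrane carboxypeptidase, were 2.44, 2.28 and 2.66 above their next line. The 10 tested genes listed for this neighbourhood had a median difference of 2.19. Of these, 7 were higher members, against 9.92% of all tested 12q genes. This list too was drawn with earlier results known, so its count is a description only.

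The stretch in 12q24.31 was the longest and lies far from the other pair. KDM2B, a histone demethylase of a Polycomb complex, had 5549, 5542 and 5619.5 in NGP and 673 to 817 (median 745) elsewhere. KELLY was nearest, at a log2 difference of 2.87 (SE 0.06). The means of the 4 other lines lay between 711 and 762, and NGP alone was set off. VPS33A, part of the complexes that tether endosomes and lysosomes, had 4254, 4085 and 4066 in NGP and 303 to 564 (median 491) elsewhere. The log2 difference was smallest from KELLY, at 2.90 (SE 0.06). TMEM120B, a membrane protein gene, had 2551, 2341 and 2370.0 in NGP and 136 to 221 (median 164) elsewhere. The smallest log2 difference, from KELLY, was 3.498 (SE 0.07). KNTC1, a kinetochore protein of the spindle checkpoint, ZCCHC8, a scaffold of a nuclear exosome targeting complex, MPHOSPH9, a centriolar protein, and RSRC2 were 2.74, 2.64, 2.21 and 2.16 above their next line. The list drawn for this band had a median of 0.49 over 32 tested genes. Of these, 11 were higher members and 0 lower, against 9.92% and 0.191% of all tested 12q genes. Since the members there were known when the list was drawn, its count is a description only.

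**Figure D2:**
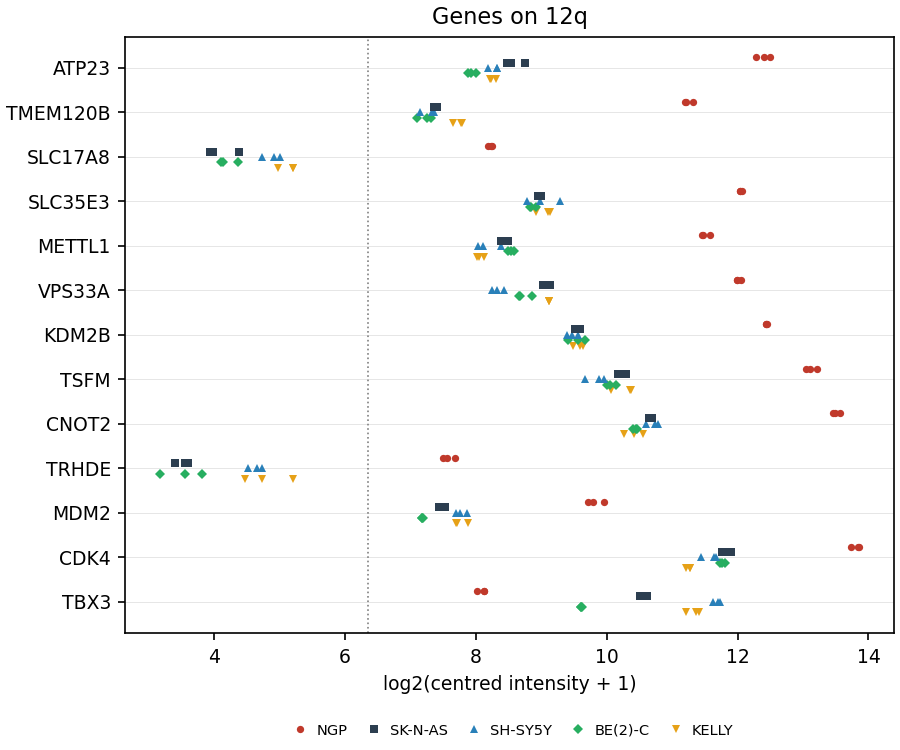
Each point is 1 array, with log2(centred intensity + 1) on the x axis for the 10 named higher 12q members, then MDM2, CDK4 and TBX3; red circles are the 3 NGP arrays and the other symbols the 3 arrays of each other line. The dotted line is the filter on dim genes (6.35, an intensity of 80.6); the NGP arrays lie right of all others in every row but TBX3, where they lie left of all others.

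Outside the 3 stretches were 10 higher members, some of them close together. CRY1 and ABTB3 were neighbours among the tested genes, and DDX51, FBRSL1, CHFR and ZNF605 lay near the far end of the arm. More than 3 tested genes between FBRSL1 and CHFR kept these from counting as a run. SLC17A8, the vesicular glutamate transporter VGLUT3, had 289, 301 and 302 in NGP and 14.4 to 36.1 (median 22.8) elsewhere. NGP differed least from KELLY, by 3.09 on the log2 scale (SE 0.13). TRHDE, which degrades thyrotropin-releasing hormone, averaged 190.5 ± 12.3 in NGP and 27.7 ± 7.53 in KELLY. Both genes were below the filter in all 4 other lines. With any 1 NGP array left out, another probe set stood for TRHDE and was below the filter, so its membership depends on the probe set. KITLG, the ligand of the receptor KIT, was looked at after its values were seen. It had 773, 767 and 842 in NGP and 37.3 to 287 (median 135) elsewhere, with KELLY the next line. The 1 lower member on the arm was TBX3, a T-box transcription factor, with 258, 279.9 and 277 in NGP and 776 to 3385 (median 1973) elsewhere. Against BE(2)-C, its nearest line, the log2 difference was -1.52 (SE 0.06). The NGP arrays were below all others, and 3 of its 4 further probe sets were also at least 1 below every other line.

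In the other 4 lines, higher members on 12q lay closer together than those elsewhere, a difference that is described here and was not tested. The range over the other 4 line means, from the lowest to the highest, had a median of 0.78 log2 units for the 52 on 12q, against 1.43 for the 184 elsewhere and 0.95 for all tested genes. It was under 1 in 76.9% of them (40 of 52), against 28.8% (53 of 184) elsewhere. By brightness, 42 of the 52 were above the filter in all 4 other lines but only 36 of the 184. Among those the medians were 0.63 on 12q and 0.95 elsewhere, against 0.86 for all such tested genes. The median NGP level was 3251 for the 12q members and 451 for the others, and the highest other line had medians of 607 and 123. Of the 184, 67 were below the filter in all 4 other lines and so passed it only through NGP.

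Promoters are printed for genes of each stretch of 12q that hold CACGTG, the E-box to which MYC and MYCN proteins bind, because MYCN is among the highly expressed factors of NGP. Each is the 250 bases before the start of the gene's first listed transcript in RefSeq, assembly GRCh38.p14, written 5′ to 3′ on the gene's strand with the E-box in capitals.
CDK4: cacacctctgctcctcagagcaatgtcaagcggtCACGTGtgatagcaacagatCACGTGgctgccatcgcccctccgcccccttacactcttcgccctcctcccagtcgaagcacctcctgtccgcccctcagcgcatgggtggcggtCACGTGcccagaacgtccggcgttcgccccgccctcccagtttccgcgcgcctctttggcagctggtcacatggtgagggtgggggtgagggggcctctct
SLC35E3: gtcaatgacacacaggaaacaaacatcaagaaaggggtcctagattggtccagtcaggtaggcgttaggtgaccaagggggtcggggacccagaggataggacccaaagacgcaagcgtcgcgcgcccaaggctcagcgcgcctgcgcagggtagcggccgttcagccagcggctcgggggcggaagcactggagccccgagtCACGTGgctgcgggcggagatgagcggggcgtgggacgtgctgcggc
VPS37B: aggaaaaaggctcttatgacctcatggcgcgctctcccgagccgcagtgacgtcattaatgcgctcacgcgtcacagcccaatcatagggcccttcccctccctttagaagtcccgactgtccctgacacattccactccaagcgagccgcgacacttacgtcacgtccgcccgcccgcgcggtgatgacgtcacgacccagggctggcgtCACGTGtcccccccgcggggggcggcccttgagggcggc
These are at chr12:57752311-57752560 (minus strand), chr12:68745926-68746175 (plus strand) and chr12:122896125-122896374 (minus strand). In CDK4 the motif stood 216, 196 and 101 bases before the start, in SLC35E3 47 and in VPS37B 39. A motif search for CACGTG, which reads the same on both strands, found it in 11.1% (5 of 45) of higher 12q members with a promoter in the table, 11.3% (16 of 142) of higher members elsewhere and 10.8% (15 of 139) of lower members elsewhere. It was in 8.94% (930 of 10398) of the promoters of all tested genes, so the shares lay close to the background in every group.

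Outside 12q, CYP1B1, a cytochrome P450 that oxidises steroids and polycyclic hydrocarbons and is induced through the aryl hydrocarbon receptor, had 4047, 3474 and 3848 in NGP and 34.3 to 171 (median 113) elsewhere. SH-SY5Y was nearest, at a log2 difference of 4.52 (SE 0.08). All 3 of its further probe sets showed NGP at least 3.83 above every other line. Of 10 tested genes of the aryl hydrocarbon receptor list, CYP1B1 was the 1 higher and NQO1, a quinone reductase, the 1 lower member, against the same background of 1.86% and 1.35%, with a median over the list of 0.16. AHR, the receptor itself, averaged 139.6 ± 4.12 in NGP, below the 1126 ± 119.7 of SK-N-AS and above the 62.9 ± 7.13 of KELLY, and was no member. CYP1A1, another target, averaged 62.0 ± 4.39 in NGP, against 41.4 ± 4.54 in BE(2)-C and 66.1 ± 12.3 in KELLY, the lowest and highest of the others. NQO1 averaged 94.0 ± 2.26 in NGP and 195 ± 12.6 in SH-SY5Y, and its smallest difference of -1.04 fell short of 1 on the deposited scale, at -0.53.

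PKIB and ARHGAP36 both encode proteins that inhibit the catalytic subunit of protein kinase A. PKIB had 3199.8, 3507 and 2937 in NGP and 16.6 to 178 (median 53.8) elsewhere. The log2 difference was smallest from SK-N-AS, at 4.33 (SE 0.14). ARHGAP36, which is also known for activating Hedgehog signalling, had 6273, 5823 and 5881 in NGP and 147 to 556 (median 282) elsewhere. The smallest log2 difference, from KELLY, was 3.48 (SE 0.05). NGP was clear of every other array for both, as in every member compared.

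TMEM163, a zinc transporter of synaptic vesicles and lysosomes, had 817, 890.1 and 793 in NGP and 14.8 to 56.9 (median 30.0) elsewhere. NGP differed least from KELLY, by 4.02 on the log2 scale (SE 0.13). RPRM, or Reprimo, a p53-induced inhibitor of the G2 to mitosis step, had 2096, 2067 and 1990.3 in NGP and 16.8 to 136 (median 28.2) elsewhere. Against SH-SY5Y, its nearest line, the log2 difference was 3.96 (SE 0.14). SH-SY5Y was the 1 other line above the filter for RPRM. Of 25 tested p53 target genes, RPRM and MDM2 were higher members and TNFRSF10B, a death receptor, was lower, against 1.86% and 1.35% of all tested genes, and the list's median was -0.23. CDKN1A, the inhibitor p21 and the best-known p53 target, averaged 1282 ± 72.3 in NGP, between the 1477 ± 21.9 of KELLY and the 347 ± 25.1 of SH-SY5Y, and was no member. TNFRSF10B averaged 26.1 ± 0.93 in NGP, 98.8 ± 2.80 in BE(2)-C and 2395 ± 30.1 in SK-N-AS, and neither of its further probe sets reached 1. Without probe sets of possible cross-match it was no longer called.

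INSM1, a zinc-finger transcription factor of neuroendocrine differentiation, had 3145, 3346 and 3242 in NGP and 13.5 to 239.8 (median 34.7) elsewhere. KELLY was nearest, at a log2 difference of 3.77 (SE 0.10). KELLY, at 234, 236 and 239.8, was the 1 other line above the filter. The 19 tested adrenergic and neuroendocrine transcription factors had a median of 0.47. INSM1 was the 1 member among them, against 1.86% of all tested genes higher and 1.35% lower. INSM2, its close relative, averaged 3580.1 ± 57.9 in NGP and 5012 ± 86.9 in KELLY and was high in every line but SK-N-AS, at 25.3 ± 5.09. Other developmental transcription factors among the higher members were ZIC2, with 326, 331 and 325 in NGP and 13.8 to 37.6 (median 27.9) elsewhere, and, named after their values were seen, NEUROG2, BCL11B and HOXD10. NEUROG2, a proneural factor, averaged 1288 ± 60.2 in NGP and 237 ± 14.3 in SH-SY5Y, the next line. BCL11B, a zinc-finger factor of T cells and neurons, averaged 966 ± 64.3 in NGP and 149 ± 6.23 in KELLY. HOXD10, a posterior homeobox gene, averaged 1086 ± 67.8 in NGP and 173 ± 5.49 in SH-SY5Y, but its 1 further probe set was only 0.21 above its next line.

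**Figure D3:**
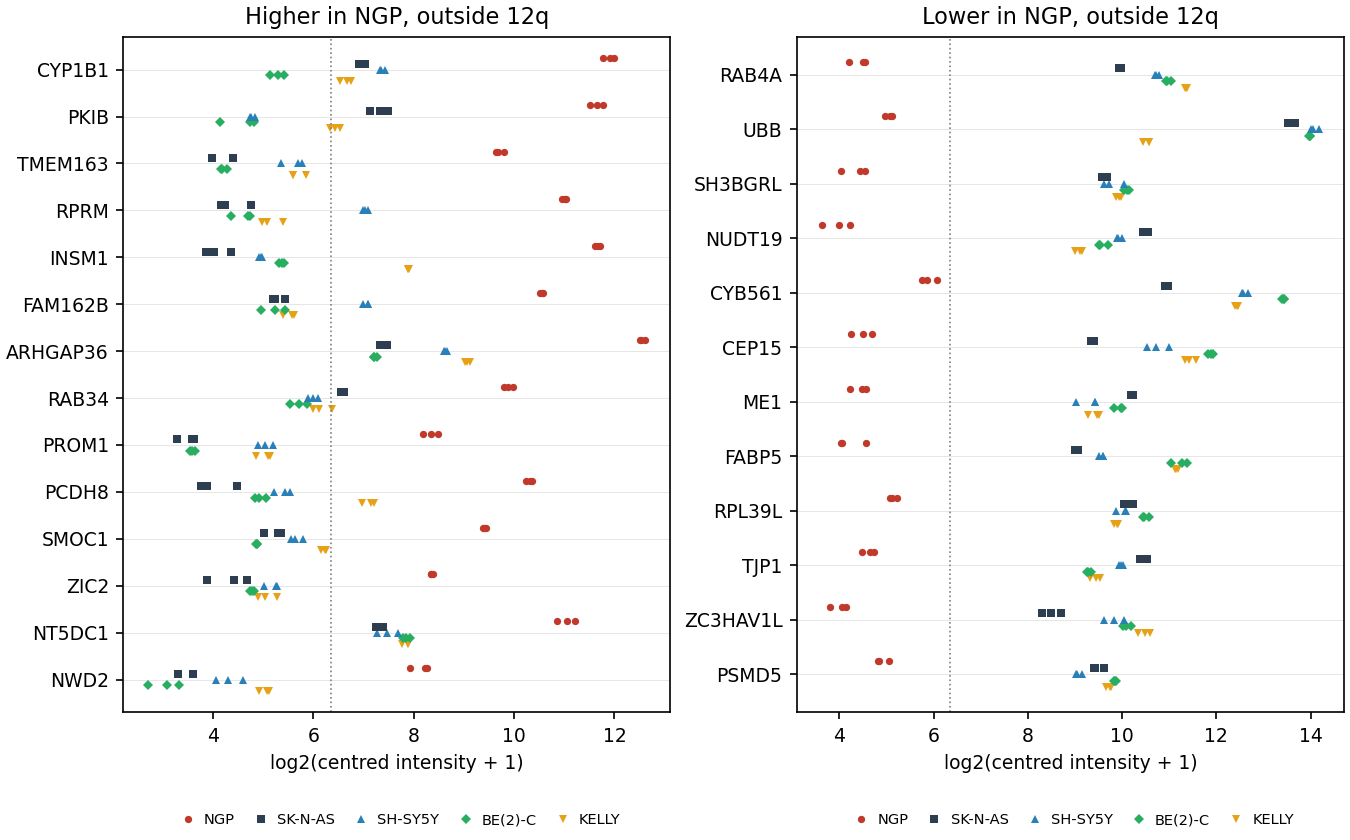
Each point is 1 array, with log2(centred intensity + 1) on the x axis, for the 14 named higher members (left) and the 12 named lower members (right) outside 12q; red circles are the 3 NGP arrays and the other symbols the 3 arrays of each other line, and the dotted line is the filter (6.35). NGP lies right of all other arrays in every row on the left and left of all of them in every row on the right, where all its points are below the filter.

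Membrane and secreted proteins made up several of the other named higher members. PROM1, the surface glycoprotein CD133, had 291, 355 and 323 in NGP and 8.74 to 35.8 (median 19.7) elsewhere. With any 1 NGP array left out, another probe set stood for PROM1 and was below the filter, so its membership depends on the probe set. PCDH8, a protocadherin of cell adhesion, had 1205, 1307 and 1279 in NGP and 12.6 to 147 (median 34.1) elsewhere. SMOC1, a secreted matrix-associated calcium-binding protein, had 679, 692 and 668 in NGP and 27.8 to 75.7 (median 43.0) elsewhere. In all 3 the NGP arrays stood above every other array, as in every higher member compared. Only PCDH8 passed the filter in another line, KELLY. RAB34, a small GTPase needed for cilium formation, had 1004, 942 and 891 in NGP and 45.3 to 97.1 (median 65.3) elsewhere. NT5DC1, of a family of nucleotidase-like proteins, had 2113, 1847 and 2364 in NGP and 150.1 to 242 (median 212) elsewhere. FAM162B averaged 1497 ± 31.9 in NGP and 132 ± 4.92 in SH-SY5Y, and NWD2 283 ± 36.1 in NGP and 31.9 ± 2.20 in KELLY. NT5DC1 was above the filter in every line, and RAB34 in NGP and SK-N-AS.

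Receptors were found on both sides. Of 18 tested growth factor and neurotrophin receptors, KIT, ERBB4 and NGFR were higher members and RET was lower, against 1.86% and 1.35% of all tested genes, with a list median of 0.30. KIT, the receptor of KITLG, had 711, 746 and 707 in NGP and 9.89 to 113 (median 23.8) elsewhere, and SH-SY5Y was the next line. ERBB4, a neuregulin receptor, averaged 473 ± 6.80 in NGP and 97.1 ± 6.98 in SH-SY5Y. NGFR, the low-affinity neurotrophin receptor, averaged 519 ± 49.0 in NGP and 109 ± 2.74 in KELLY, but its 1 further probe set did not separate NGP, at -0.05 from the nearest line. RET, the receptor that GDNF-family ligands reach through GFRA co-receptors, had 358, 353 and 350.3 in NGP and 1574 to 3456 (median 1874) elsewhere. The log2 difference was smallest from KELLY, at -2.17 (SE 0.05).

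Synaptic genes were all on the higher side where they met the rule. Of 23 tested synaptic and ion channel genes, 5 were higher members and 0 lower, against 1.86% and 1.35% of all tested genes. The list median was 0.86, and the rest of the 30 listed genes were not tested. GABBR2 and GRIN3A had highest other arrays of 62.7 and 51.1, below the filter. Their place among the tested genes rests mainly on NGP, so the count is a description only. GABBR2, a subunit of the GABA-B receptor, averaged 262 ± 11.2 in NGP and 57.3 ± 8.17 in KELLY. GRIA2, an AMPA receptor subunit, averaged 1258 ± 40.2 in NGP and 489 ± 15.4 in KELLY. SYN2, a synaptic vesicle protein, averaged 502 ± 3.18 in NGP and 157 ± 4.08 in KELLY. GRIN3A, an NMDA receptor subunit, and CACNA1B, an N-type calcium channel subunit, were 1.74 and 1.2 above their next lines, though the 1 further probe set of CACNA1B did not reach 1. KELLY was thus the next line for GABBR2, GRIA2 and SYN2. Of 25 tested axon guidance and adhesion genes, with a median of 0.97, 2 were higher members, against 1.86% of all tested genes. They were NRP2, a semaphorin and VEGF receptor, with 1005 ± 70.2 in NGP and 129 ± 5.57 in KELLY, and EFNA5, an ephrin ligand, with 1210.5 ± 62.2 in NGP and 603 ± 32.8 in SH-SY5Y. EFNA5 sat on the threshold at 1.01, and its call was lost without NGP replicate 1 or 3 or SH-SY5Y replicate 1 or 2, at 0.98 to 0.99.

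Members of 3 neurosecretory lists were single genes on either side, with 1.86% of all tested genes higher and 1.35% lower as the background. Of 15 tested secretory granule and zinc transport genes TMEM163 was the 1 member, with a list median of 0.75. TMEM163 was below the filter on all other arrays, so its place among the tested genes rests mainly on NGP. Of 15 tested neuropeptides and receptors, SSTR2, a somatostatin receptor, was higher, with 439 ± 50.4 in NGP and 96.8 ± 4.36 in KELLY. VIP, vasoactive intestinal peptide, was lower, with 20.5 ± 4.54 in NGP, 49.9 ± 3.45 in KELLY and 12890.3 ± 322 in SK-N-AS. VIP was thus dim in KELLY too, and its smallest difference of -1.26 became -0.96 on the deposited scale. The median of that list was -0.42. Of 15 tested genes of catecholamine synthesis, storage and breakdown CYB561 was the 1 member, on the lower side, and the median was -0.55.

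In the list of retinoid, WNT, NOTCH and TGF-beta genes, 2 of 35 tested genes were higher members and 3 lower, against 1.86% and 1.35% of all tested genes, with a median of 0.14. JAG1, a Notch ligand, and HES6, a bHLH factor that counters HES1, were higher. HES6 averaged 3939.9 ± 324 in NGP and 1504 ± 215 in SH-SY5Y. HEY1, a Notch target, ID3, an inhibitor of bHLH factors and BMP target, and SMAD3, a TGF-beta signal transducer, were lower. ID3 averaged 1026 ± 35.8 in NGP and 3127 ± 208 in SH-SY5Y. SMAD3 averaged 110.4 ± 6.08 in NGP and 288 ± 9.35 in BE(2)-C, and HEY1 164 ± 7.55 in NGP and 380.5 ± 19.97 in SK-N-AS. No further probe set of JAG1, HEY1 or SMAD3 lay 1 beyond every other line. HES6 and SMAD3 each missed the threshold on the deposited scale, at 0.86 and -0.96. Of 19 tested G1 cyclins, kinases and inhibitors, with a median of -0.02, CDK4 was the 1 member, against the same 1.86% and 1.35%.

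Most lower members outside 12q were dim in NGP, which the rule itself favours, since it takes genes that are lowest in NGP. NGP was below the filter in 125 of the 171, and in 95 of these all 4 other lines were above it. Over all 12721 tested genes these counts were 2089 (16.4%) and 179 (1.41%). The median NGP level of the 171 was 38.8, and the lowest other line had a median of 179. Their smallest differences had a median of -1.62, against 1.54 for the higher members outside 12q. Since dim values lie near the array background, a difference understates the change of such genes.

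UBB, a polyubiquitin gene that supplies ubiquitin, had 33.7, 30.5 and 32.7 in NGP. SK-N-AS had 13077, 11736 and 12001, SH-SY5Y 18508, 16589 and 16974, BE(2)-C 16116, 16241 and 16341 and KELLY 1512, 1399 and 1521. NGP was below the filter, KELLY was between, and the arrays of the other 3 lines were all at 11736 or higher. The smallest log2 difference, from KELLY, was -5.47 (SE 0.06). The second probe set of UBB gave a smallest difference of -6.09. Both are of a type that can match related transcripts. UBB was the 1 tested gene of the 4 in the ubiquitin precursor list, so nothing can be said here about the others.

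RAB4A, a GTPase of fast endosomal recycling, had 21.8, 17.4 and 22.4 in NGP and 983 to 2669 (median 1861) elsewhere. NGP differed least from SK-N-AS, by -5.54 on the log2 scale (SE 0.07). ME1, the cytosolic malic enzyme that makes NADPH, had 21.2, 17.8 and 22.7 in NGP and 518 to 1196 (median 819) elsewhere. Against SH-SY5Y, its nearest line, the log2 difference was -4.86 (SE 0.10). CYB561, which carries electrons across the chromaffin granule membrane to renew the ascorbate used by dopamine beta-hydroxylase, had 66.1, 57.2 and 53.04 in NGP and 1930.1 to 11123 (median 5814) elsewhere. SK-N-AS was nearest, at a log2 difference of -5.06 (SE 0.06). For each of these genes the NGP arrays were below the filter and far below the lowest other array. DBH, dopamine beta-hydroxylase itself, averaged 846 ± 20.6 in NGP, between the 59.1 ± 4.22 of SK-N-AS and the 3788 ± 218 of SH-SY5Y, and was no member.

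CpG dinucleotides are the sites of DNA methylation in human promoters, and methylation was not measured here. The promoters of UBB, RAB4A, ME1 and CYB561, which were dim in NGP, and of RPRM and TMEM163, which were bright in NGP and dim in most other lines, are shown with each CG in capitals, cut and credited as above.
UBB: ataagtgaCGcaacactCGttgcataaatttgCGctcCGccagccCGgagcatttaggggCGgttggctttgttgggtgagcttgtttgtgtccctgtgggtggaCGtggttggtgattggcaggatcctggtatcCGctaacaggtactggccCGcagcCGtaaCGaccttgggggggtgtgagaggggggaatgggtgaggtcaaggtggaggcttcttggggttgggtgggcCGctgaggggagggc
RAB4A: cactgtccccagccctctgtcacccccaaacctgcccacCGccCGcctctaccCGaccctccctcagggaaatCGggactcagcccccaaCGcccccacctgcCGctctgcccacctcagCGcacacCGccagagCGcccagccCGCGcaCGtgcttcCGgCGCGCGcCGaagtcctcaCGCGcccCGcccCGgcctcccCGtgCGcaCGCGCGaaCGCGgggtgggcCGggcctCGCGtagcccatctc
ME1: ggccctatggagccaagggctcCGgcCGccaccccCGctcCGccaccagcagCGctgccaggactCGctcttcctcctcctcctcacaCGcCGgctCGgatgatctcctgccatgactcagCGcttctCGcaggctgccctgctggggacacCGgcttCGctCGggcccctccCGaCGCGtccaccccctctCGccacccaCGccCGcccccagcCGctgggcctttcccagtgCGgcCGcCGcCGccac
CYB561: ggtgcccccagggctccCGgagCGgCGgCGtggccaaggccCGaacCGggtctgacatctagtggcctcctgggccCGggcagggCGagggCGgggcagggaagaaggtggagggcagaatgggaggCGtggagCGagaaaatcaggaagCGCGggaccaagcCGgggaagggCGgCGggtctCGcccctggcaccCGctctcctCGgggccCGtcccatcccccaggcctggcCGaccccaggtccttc
RPRM: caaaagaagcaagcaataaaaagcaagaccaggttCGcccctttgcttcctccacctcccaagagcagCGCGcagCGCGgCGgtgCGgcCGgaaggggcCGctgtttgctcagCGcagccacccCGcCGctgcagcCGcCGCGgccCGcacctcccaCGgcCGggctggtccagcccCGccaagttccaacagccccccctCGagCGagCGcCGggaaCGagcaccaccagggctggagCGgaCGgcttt
TMEM163: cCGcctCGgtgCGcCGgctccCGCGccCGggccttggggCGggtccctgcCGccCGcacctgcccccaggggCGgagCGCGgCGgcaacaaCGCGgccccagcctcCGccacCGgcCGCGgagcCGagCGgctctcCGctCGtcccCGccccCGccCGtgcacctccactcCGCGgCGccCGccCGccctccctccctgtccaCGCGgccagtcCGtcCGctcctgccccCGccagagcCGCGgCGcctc
They lie at chr17:16381040-16381289 and chr1:229270861-229271110 on the plus strand, and at chr6:83431052-83431301, chr17:63446640-63446889, chr2:153478763-153479012 and chr2:134719001-134719250 on the minus strand. They hold 12, 31, 25, 21, 26 and 40 CpGs in the order printed. The median was 19 for 139 lower members outside 12q with a promoter in the table, 20 for 142 higher members outside 12q and 23 for 45 higher members on 12q, against 21 for all 10398 tested genes with one. At least 15 CpGs were present in 72.7% of the lower members, 64.8% of the higher members outside 12q and 82.2% of those on 12q, against 71.8% of all. A promoter was matched by symbol for 326 members.

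Other named lower members spanned metabolism, adhesion and protein turnover. SH3BGRL, a small thioredoxin-like adaptor, had 20.7, 22.4 and 15.5 in NGP and 756 to 1134 (median 958) elsewhere. NUDT19, a nudix hydrolase, had 14.97, 11.4 and 17.7 in NGP and 509.6 to 1487 (median 888) elsewhere. FABP5, a fatty acid carrier, had 22.8, 15.3 and 15.7 in NGP and 509.9 to 2670.1 (median 1434) elsewhere. All 3 were below the filter on every NGP array and above it on every other. TJP1, the tight junction scaffold ZO-1, had 25.7, 24.27 and 21.3 in NGP and 607 to 1475 (median 854) elsewhere. PSMD5, an assembly chaperone of the proteasome, had 32.3, 27.2 and 27.7 in NGP and 520.5 to 934 (median 798) elsewhere. RPL39L, a paralog of a ribosomal protein gene, had 33.7, 36.2 and 32.9 in NGP and 902 to 1517 (median 1076) elsewhere. These too were separated without overlap, like every member compared. CEP15, a centrosomal protein gene, and ZC3HAV1L had means of 21.5 ± 3.38 and 15.03 ± 1.87 in NGP. In SK-N-AS, the next line for both, the means were 667 ± 14.5 and 362 ± 52.2. CDH2, or N-cadherin, the adhesion molecule of neural cells, was picked out after its values were seen, with 199.5, 197 and 189 in NGP and 2325 to 3411 (median 2829) elsewhere. It stayed above the filter in NGP, and its further probe set had a smallest difference of -3.52.

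**Figure D4:**
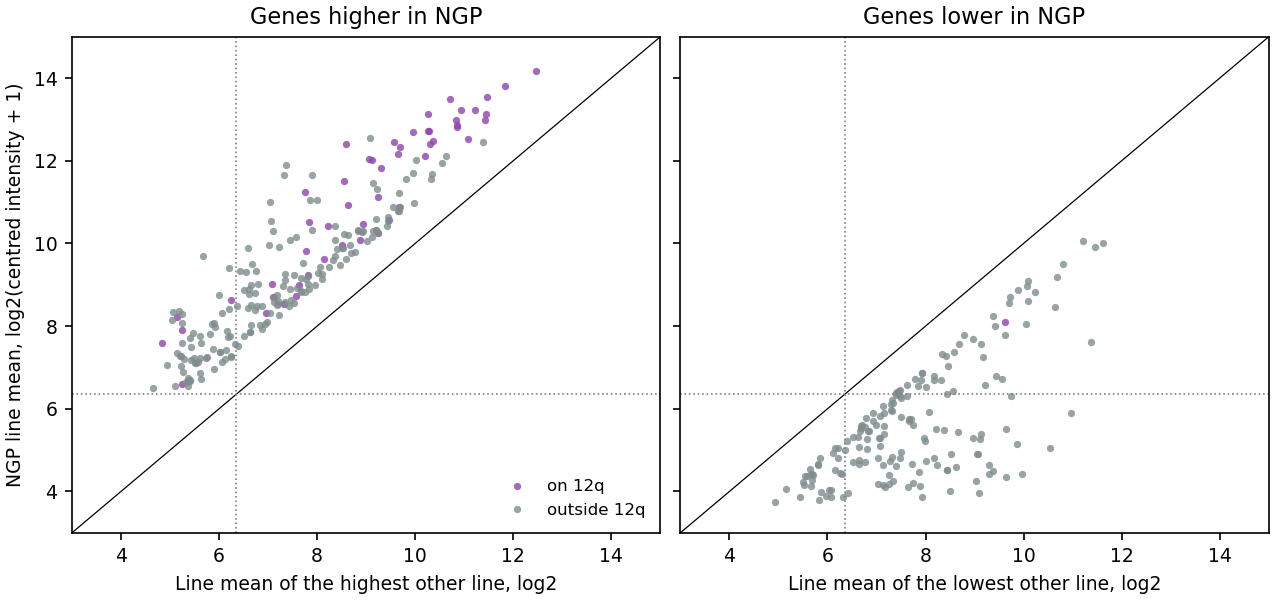
Each point is 1 member. The y axis is the NGP line mean and the x axis that of the next line, the highest other for genes higher in NGP (left) and the lowest other for genes lower in NGP (right), all as log2(centred intensity + 1); purple points are on 12q and grey points elsewhere, dotted lines mark the filter (6.35) and the diagonal marks equal levels. Higher 12q members lie mostly at the bright end, with medians of 3251 in NGP and 607 in the next line, and lower members are mostly below the filter in NGP (125 of 171 outside 12q).

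After 12q, the largest shares of higher members among the other autosomes and X were those of chromosome 13 with 4.23% (9 of 213), chromosome 4 with 3.71% (17 of 458) and chromosome 2 with 2.84% (24 of 844). Among the same chromosomes, lower members were most frequent on 15, X and 10, with 2.71% (11 of 406), 2.39% (10 of 418) and 2.24% (11 of 492). Chromosome 19 had 2 higher and 19 lower members among 922. Of 176 tested genes there whose symbols start with ZNF, 10 were lower and 0 higher members, and of the other 746, 9 were lower and 2 higher. Short runs were few outside 12q. Higher members RWDD1, ZUP1, FAM162B and CEP85L lay among 8 tested genes on chromosome 6, PCDH8, PCDH20 and DACH1 among 7 on chromosome 13, and NAA16, RGCC and ENOX1 among 6 on the same chromosome. Their median differences from the mean of the other lines, 1.30, 1.42 and 1.31, were below those of the 12q stretches. Lower members PALS2, GSDME and OSBPL3 were 3 neighbours on chromosome 7, with a median of -2.10, and ZNF264, ZNF304, ZNF772 and ZNF549 lay among 10 on chromosome 19, with -1.24. The remaining run, MNS1, ZNF280D and GCOM1, lay among 4 genes on chromosome 15 with a median of -2.63.

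**Figure D5:**
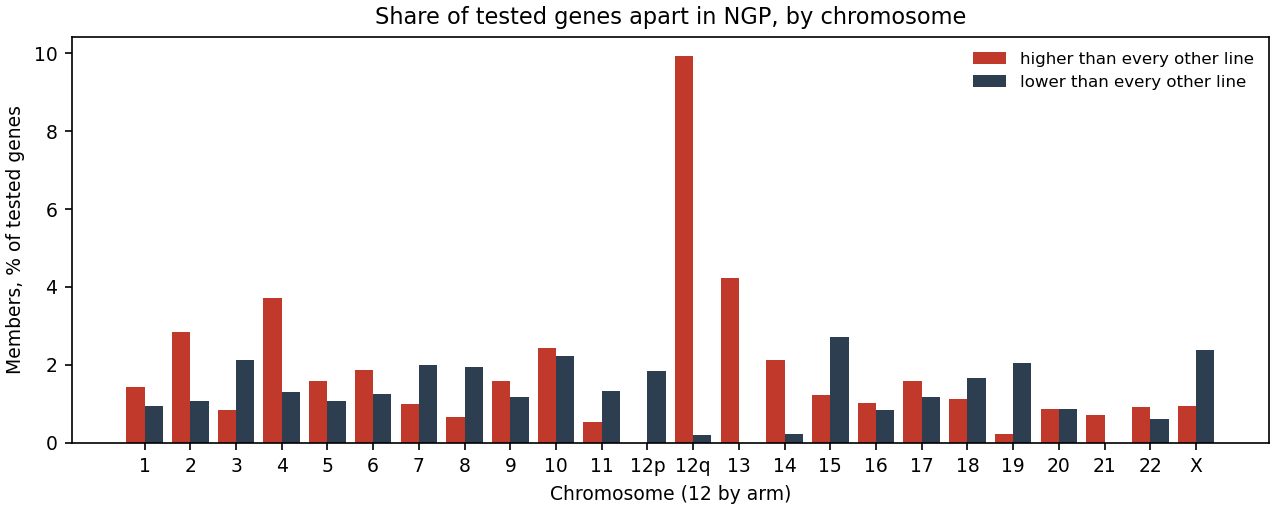
Bars start at 0 and give, for each chromosome on the x axis (chromosome 12 by arm), the percentage of its tested genes that were higher (red) or lower (dark) in NGP than in every other line. The red bar of 12q reaches 9.92%, that of chromosome 13 is the next of those plotted at 4.23%, and 12p has 0 higher members.

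The line nearest to NGP varied from member to member. Among higher members it was KELLY for 93, SH-SY5Y for 74, SK-N-AS for 41 and BE(2)-C for 28. On 12q SK-N-AS was the nearest for 21 of 52, and outside it for 20 of 184. Among lower members it was KELLY for 56, SH-SY5Y for 41, SK-N-AS for 40 and BE(2)-C for 35. These counts share the NGP arrays and describe the members only.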

How the data were processed

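The authors deposited linear intensity values of each probe set. The submitters' processing notes name MAS5; its version, background correction and scaling are not stated there. Array medians of the deposited intensities ran between 51.9 and 126, and medians of the ERCC control probe sets between 8.85 and 9.12 on the log2 scale; whether ERCC probe sets were used for scaling is not stated.

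Of 49494 probe sets, 45277 named 1 gene; the one with the highest mean stood for each of 18244 genes. Genes were kept for testing where at least 1 line mean reached the overall median value (log2 of 6.35, an intensity of 80.6). Values were taken as log2(intensity + 1), and arrays were centred to equal medians over the 12721 genes kept; centred intensities in the text are turned back to a linear scale. On 12q are the chromosome 12 genes from ALG10B onward in RefSeq order (GRCh38.p14), and the probe annotation gave the symbols.

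Samples were grouped by the labels' cell line. A limma model (3.58.1, R 4.3.3) with 1 mean per line and an intensity-dependent prior variance was fitted to all 15 arrays, with 4 contrasts of NGP against another line, and was tested on simulated data. SE is that of the contrast with the nearest line. Alternatives changed centring, normalization, the probe set rule, the filter, the pseudocount, the prior variance, the replicate block and each array in turn.

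Named were the 14 higher and 12 lower members outside 12q and the 10 higher on 12q with the largest smallest difference, TBX3, a few fixed genes and up to 4 members of each gene list; genes without a RefSeq symbol and some members were counted but not named. Where the text names further genes it says that their values were seen first. The members, lists and rules were chosen with earlier results of these data known. Deviations of same-numbered arrays from their line means correlated between -0.227 and 0.234 over 30 pairs (above 0.1 in 5). Such deviations cannot settle whether same-numbered arrays were handled together, and the labels do not say. The main fit did not pair them. The number of arrays limits the precision.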

Additional observations from a re-analysis of the deposited data

How the results depend on the processing

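Across the alternatives, including each array left out in turn, the counts of higher members on 12q and of higher and lower members elsewhere stayed within 1.5 times the reported ones, at 41 to 55, 146 to 207 and 120 to 182. Without 1 array they were 51 to 54, 178 to 190 and 169 to 178. The count of lower 12q members, reported as 1, was 2 without probe sets of possible cross-match and 2 with a filter 1 log2 unit higher, and 1 to 3 without 1 array (3 without NGP replicate 2, 2 without NGP replicate 3 or KELLY replicate 1). The median 12q difference of 0.15 turned to -0.0041 on the deposited scale and -0.0677 with equal ERCC medians, where the median of all other tested genes was -0.1209 and -0.1845, so that the gap of 0.1168 between them was the same by construction. It was 0.1128 after centring on all probe sets, 0.1113 without the filter, and 0.1376 to 0.1714 without 1 array. The share of further probe sets at least 1 beyond every other line was 64.2% to 66.2% without 1 array; the alternatives for it and for the arrays left out were chosen after seeing the data. Of 79 named genes, 72 kept direction and side of the threshold in every alternative that gave a value; 14 of the 79 had none in at least 1 (21 of 2054 pairs), among them CYP1B1, TMEM163, INSM1, FABP5 and NUDT19 without probe sets of possible cross-match, and PROM1 and TRHDE without any 1 NGP replicate, where another probe set stood for the gene and was below the filter; NQO1, VIP, EFNA5, HES6, SMAD3 and TNFRSF10B fell below the threshold in at least 1. CD68, a leukocyte marker that is no member, lay between -0.6016 and 0.0162 without 1 array, changing sign without SK-N-AS replicate 1, and the cause was not tested. Fits with the replicate block gave the same counts, 52 and 1 on 12q and 184 and 171 elsewhere, and changed no call. Dim signal limits the lower members most, since 125 of 171 were below the filter in NGP.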
